A study of Mus musculus with 6 samples.

Results

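The genes described here are those of antigen presentation by MHC class II: 10 genes picked by symbol from a count table of 52110 named lines. They are the class II chain genes H2-Aa, H2-Ab1 and H2-Eb1, the invariant chain gene Cd74, the peptide editors H2-DMa and H2-DMb1, the transactivator Ciita, the costimulatory ligands Cd80 and Cd86, and the lectin gene Cd209a. All 10 were found, each on 1 line, and 9 of them passed the filter on low counts. RNA sequencing libraries came from muscle of WT mice of the strain labelled c57b6l, 3 libraries from mice whose agent was click and 3 from mice whose agent was EDC. The labels give no age, no untreated group and no dose, and do not say what click or EDC stands for. Total RNA was made into libraries with a SMARTER mRNA-Seq kit, per the labels' protocols. The series counts 3 mice a group, so each library was read as 1 animal. Fold changes are click over EDC.

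Class II molecules are pairs of an alpha and a beta chain that carry peptides from taken-up proteins to the cell surface, where CD4 T cells read them. The invariant chain guards the new pair on its way through the cell, lysosomal proteases cut that chain down, and the editor H2-M, made by H2-DMa and H2-DMb1, exchanges its last fragment for other peptides. Dendritic cells, B cells and macrophages carry these molecules, and their transcription needs Ciita, a coactivator that binds no DNA itself and docks on factors held at an X box and a Y box before each gene. CD80 and CD86 give the T cell its second signal through the receptor CD28. In muscle, class II is a property mainly of immune and some lining cells and not of resting fibres.

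Promoter sequences of the class II chain genes are shown to give the X and Y boxes their letters; no result below was tested against them. RefSeq promoter windows (GRCm38.p6, 250 bases before to 50 after a start) were at hand for 6 of the 10 members, H2-Aa, H2-Eb1, H2-DMa, H2-DMb1, Cd80 and Cd209a. Both strands were searched for GNAAC, part of the X box bound by the RFX factors, followed by ATTGG, the core of the Y box bound by NF-Y, with 30 to 33 bases from the first letter of one to the first letter of the other. These letters and this spacing were chosen after the windows had been read. The pair was present in 0.712% of all 32851 windows, and the Y core alone, on either strand, in 37.4%. It was present in 6 of the 8 class II chain genes with a window. The stretches around it are given 5′ to 3′ on the gene's strand, with both cores in capitals, and for H2-DMb2, a close relative of H2-DMb1 whose window did not hold the pair, with the Y core alone.
H2-Aa, chr17:34287855-34287916, minus strand: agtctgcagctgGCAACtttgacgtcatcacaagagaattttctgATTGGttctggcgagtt
H2-Eb1, chr17:34305764-34305824, plus strand: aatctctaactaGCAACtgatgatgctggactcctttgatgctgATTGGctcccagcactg
H2-DMb1, chr17:34153085-34153146, plus strand: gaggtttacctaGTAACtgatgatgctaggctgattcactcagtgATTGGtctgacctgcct
H2-Ob, chr17:34238806-34238864, plus strand: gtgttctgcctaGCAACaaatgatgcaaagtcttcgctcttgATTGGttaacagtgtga
H2-Oa, chr17:34092291-34092352, plus strand: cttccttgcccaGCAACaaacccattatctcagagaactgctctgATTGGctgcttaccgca
H2-Eb2, chr17:34325531-34325591, plus strand: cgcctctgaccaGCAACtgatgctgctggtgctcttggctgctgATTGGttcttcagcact
H2-DMb2, chr17:34145114-34145175, plus strand: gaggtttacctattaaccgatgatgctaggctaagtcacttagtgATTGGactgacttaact

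The Y core began at position -48 from the start in H2-Aa, -59 in H2-Eb1 and -61 in H2-DMb1. The windows of H2-DMa (2 starts), Cd80 and Cd209a did not hold the pair. In GENCODE M21 (GRCm38) the 5 H2 members lie close together on chromosome 17. H2-Ab1 (ENSMUSG00000073421.6) spans 34257689 to 34269419 on the plus strand, H2-Aa (ENSMUSG00000036594.15) 34282744 to 34287823 on the minus strand and H2-Eb1 (ENSMUSG00000060586.11) 34305867 to 34316674 on the plus strand. H2-DMa and H2-DMb1 start at 34119541 and 34153072, both on the plus strand. Cd80, Cd86 and Ciita are on chromosome 16 and Cd209a is on chromosome 8. All 10 are protein-coding. Exons of H2-DMa share 360 bases, 10.4% of their length, with Brd2 on the opposite strand, and exons of Ciita share 329 bases, 3.45%, with Dexi on the opposite strand. Whether strand was used in counting is not stated, and part of their reads may belong to those partners. H2-DMb1 has a near-identical relative in H2-DMb2, and reads may be split between them.

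Libraries held 34472421 to 39305779 reads. Levels are given in CPM, reads scaled to the size of the library after TMM correction. The 6 skeletal muscle markers, Acta1 and Ckm among them, summed to 109120 to 164770 CPM in click and 74558 to 123700 CPM in EDC libraries. Click replicates 2 and 3 stood apart by lymphocyte genes. The 8 B cell markers summed to 2.24, 94.6 and 199.8 CPM in click replicates 1, 2 and 3, against 2.43, 1.82 and 1.61 CPM in the EDC replicates. Pax5, the B lineage factor, had 0, 293 and 775 reads in click and 0 reads in each EDC library, where 0 reads allow a level of up to 0.0597 to 0.0829 CPM, a limit for counting error only. The 7 T cell markers, each with reads in all 6 libraries, summed to 8.43, 35.3 and 219.98 CPM in click and to 20.8, 11.1 and 16.6 CPM in EDC. The 12 macrophage markers, also with reads in all 6, summed to 1147, 140.1 and 1009.7 CPM in click and to 2245, 1760.0 and 4151 CPM in EDC, so that click replicate 2 was the lowest. The 8 neutrophil markers summed to 15.1 to 72.0 CPM in click and 235 to 311 CPM in EDC. Mmp9 alone gave 64.6 of 72.0, 1.35 of 15.1 and 59.9 of 66.3 CPM in click replicates 1, 2 and 3. In EDC replicates 1, 2 and 3 it gave 70.6 of 235, 254.8 of 268.7 and 136 of 311 CPM. S100a8 and S100a9 in EDC replicate 2 stood at 1.94 and 1.99 CPM, within their click ranges of 1.09 to 2.87 and 0.809 to 5.75 CPM. Each click library was under each EDC library for 4 of the 8 neutrophil markers and for 12.4% of all genes. In bulk tissue, fewer cells of a type and less RNA per cell cannot be told apart.

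Libraries also differed in sex and in a read class, neither of which the labels give. Reads of Xist, from the inactive X chromosome, were found in replicate 1 of each group, 8755 in click and 11813 in EDC, and were 0 in the other libraries, which are called male below. For each read of Gm10925, a copy of the mitochondrial gene mt-Atp6, there were 0.927 to 0.937 mt-Atp6 reads in a high class of libraries (replicate 2 of click, replicates 1 and 3 of EDC). The other libraries, the low class, had 0.162 to 0.166.

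The genes of the class II chains and the invariant chain did not separate click from EDC muscle. H2-Aa, the alpha chain of the molecule I-A, stood at 113, 65.1 and 279.8 CPM in click and at 234, 144 and 143 CPM in EDC. H2-Ab1, its beta chain, stood at 77.9, 46.1 and 192 CPM in click and at 119, 92.1 and 84.3 CPM in EDC. In both genes click replicate 3 was the highest of the 6 libraries and click replicates 1 and 2 the lowest, so the EDC values lay inside the range of the click values. On the log2 scale the change was -0.19 for H2-Aa (SE 0.53, edgeR adjusted p = 0.872) and 0.10 for H2-Ab1 (SE 0.50, edgeR adjusted p = 0.933). With library totals as the scaling H2-Ab1 was at -0.23, where the median of all genes was itself at -0.45.

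H2-Eb1, the beta chain of the molecule I-E, had 48.5, 31.8 and 136 CPM in click and 110.1, 64.0 and 68.3 CPM in EDC. Its alpha partner is a pseudogene in the C57BL/6 background, H2-Ea-ps, which had 0 reads in all 6 libraries, a level of at most 0.0597 to 0.109 CPM. Cd74, the invariant chain, had 185, 106 and 382 CPM in click and 269.8, 263 and 201 CPM in EDC. Again the EDC values fell inside the click range, with the same 3 click libraries in the same places. Fold changes on the log2 scale were -0.17 for H2-Eb1 (SE 0.54, edgeR adjusted p = 0.891) and -0.13 for Cd74 (SE 0.45, edgeR adjusted p = 0.901). The plot of members by library shows this spread.

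**Figure D1:**
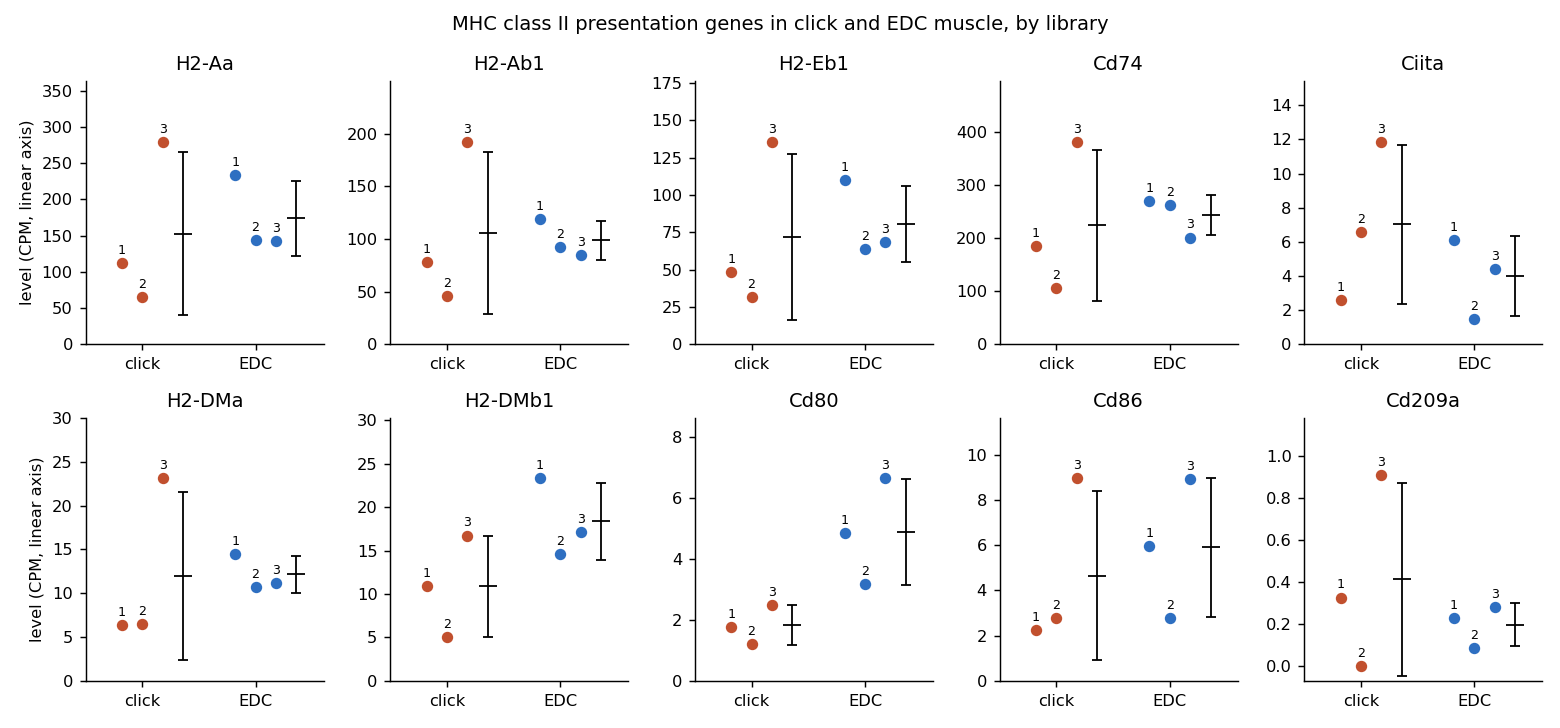
Level of each of the 10 genes in CPM on a linear axis, with click libraries at the left of each panel and EDC libraries at the right; numbers are replicates, and the bar is the mean ± SD of 3 libraries. Cd80 is the gene whose click values (1.20 to 2.50 CPM) all lie under its EDC values (3.18 to 6.64 CPM), and click replicate 3 is the highest library for H2-Aa, H2-Ab1, H2-Eb1, Cd74, Ciita, H2-DMa and Cd209a.

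The peptide editor genes showed much the same order in the click libraries. H2-DMa had 6.37, 6.44 and 23.1 CPM in click and 14.5, 10.7 and 11.2 CPM in EDC, which gave -0.02 on the log2 scale (SE 0.52, edgeR adjusted p = 0.990). H2-DMb1 had 10.9, 5.09 and 16.7 CPM in click and 23.3, 14.6 and 17.2 CPM in EDC, which gave -0.75 on the log2 scale (SE 0.42, edgeR adjusted p = 0.409). For H2-DMb1 click replicates 1 and 2 were under every EDC library, and click replicate 3 lay between EDC replicates 2 and 3.

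Ciita, the transactivator, had 2.60, 6.59 and 11.9 CPM in click and 6.09, 1.49 and 4.40 CPM in EDC. The highest values were those of click replicates 3 and 2, with EDC replicate 1 next at 6.09 CPM, and the groups overlapped. B cell markers were also high in those click libraries, and their part in the Ciita values was not tested. The log2 fold change of Ciita was 0.81 (SE 0.66, edgeR adjusted p = 0.545). In click replicate 1 alone against EDC the value was -0.62, with the spread taken from the EDC libraries.

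Of the costimulatory ligands, Cd80 was lower in each click library and Cd86 overlapped between the groups. Cd80 had 1.77, 1.20 and 2.50 CPM in click and 4.85, 3.18 and 6.64 CPM in EDC. All 3 click values were under all 3 EDC values, on 49, 33 and 99 reads in click and 212, 115 and 334 reads in EDC. Its log2 fold change was -1.42 (SE 0.42), a 2.67-fold lower level in click, with an edgeR p of 0.0109 that did not pass after adjustment over 15797 genes (edgeR adjusted p = 0.298). The DESeq2 Wald test called it (DESeq2 adjusted p = 0.0467), a call made for 2.43% of genes in that direction; limma-voom did not (limma adjusted p = 0.280). Over the edgeR and limma alternatives the adjusted p of Cd80 ran from 0.106 with the replicate block to 0.724 in male libraries alone, and the log2 fold change from -1.87 with library totals to -1.13 without EDC replicate 3. Cd80 was at -1.42 with sex as a covariate (edgeR adjusted p = 0.409), at -1.40 with the read class (edgeR adjusted p = 0.461) and at -1.40 in male libraries alone. Macrophage marker sums also had each click library under each EDC library, and their part in the Cd80 values was not tested beyond the ratios given below.

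Cd86 had 2.24, 2.77 and 8.95 CPM in click and 5.97, 2.79 and 8.95 CPM in EDC. Each group held both low and high libraries, and the log2 fold change was -0.34 (SE 0.64, edgeR adjusted p = 0.807). Cd209a, a mouse relative of DC-SIGN found on some dendritic cells, was barely read. It had 9, 0 and 36 reads in click and 10, 3 and 14 reads in EDC, did not pass the filter and has no test. Most of its click reads came from click replicate 3.

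Counted over the members, edgeR called 0 of the 9 tested (0.00633% of all genes were called), and 1, Cd80, had an unadjusted edgeR p under 0.05, as 15.2% of all genes did in either direction (1263 lower and 1141 higher of 15797). DESeq2 called 1, Cd80, on the lower side, where it called 2.43% of all genes as lower and 1.73% as higher. limma-voom called 0 members. Groups did not overlap for 1 member on the lower side and for 0 on the higher side, where the shares of all genes were 12.4% and 9.84%. Of the 9, 7 had a log2 fold change under 0 and 2 over 0, with a median of -0.17 beside 0.02 over all genes tested. A single gene of 9 is close to the share of all genes in the unadjusted and the overlap counts, so that these counts do not set the members apart. Scaling by library totals alone put the median of the members at -0.49 and that of all genes at -0.45.

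The count at an unadjusted p depended on click replicate 3. Without it, 5 members (Cd80, H2-Aa, H2-DMa, H2-DMb1 and H2-Eb1) had an unadjusted edgeR p under 0.05 and all 5 were lower in click, with a median over the 9 members of -0.97. In that same setting 21.3% of the 16312 genes tested had such a p in either direction, and 12.5% had it on the lower side. The log2 fold change was then -0.97 for H2-Aa (SE 0.36), -0.92 for H2-DMa (SE 0.25) and -1.24 for Cd86 (SE 0.52), and edgeR called 0 of the 9, with adjusted p-values of 0.174 to 0.875. Without click replicate 2 the median turned to 0.15, and H2-Aa, H2-Eb1, Cd74 and H2-DMa turned to values between 0.14 and 0.25. In male libraries alone these 4 were at 0.26, 0.34, 0.07 and 0.43. The plot of fold changes gives both the standard errors and these ranges.

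**Figure D2:**
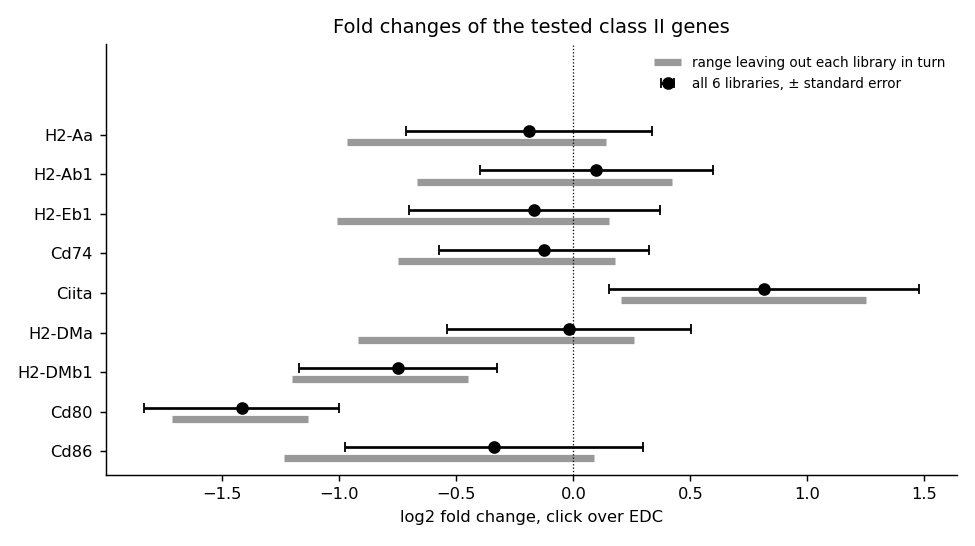
Log2 fold change, click over EDC, of the 9 tested genes (horizontal axis). Points with bars are all 6 libraries ± standard error, and grey bars give the range when each library is left out in turn. The grey bar of Cd80 runs from -1.72 to -1.13 and that of H2-DMb1 from -1.20 to -0.45, while those of H2-Aa, H2-Ab1, H2-Eb1, Cd74, H2-DMa and Cd86 cross 0.

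Levels per kilobase of annotated exon allow the members to be set beside each other. Cd74 was the most abundant at 134 ± 84.7 CPM per kilobase in click and 146 ± 22.4 in EDC (SD, n = 3 each). H2-Aa was at 40.2 ± 29.7 CPM per kilobase in click and 45.8 ± 13.8 in EDC, H2-Ab1 at 41.0 ± 29.9 and 38.4 ± 7.13, and H2-Eb1 at 37.0 ± 28.7 and 41.6 ± 13.1. These spreads are between libraries and cannot show whether the 3 chains differ within a library. Within each click library H2-Ab1 was the highest of the 3 and H2-Eb1 the lowest, while H2-Aa was the highest in each EDC library. The editors came next, with H2-DMb1 at 6.49 ± 3.47 CPM per kilobase in click and 10.9 ± 2.66 in EDC and H2-DMa at 3.47 ± 2.79 and 3.52 ± 0.599. Cd86 (1.27 ± 1.02 CPM per kilobase in click and 1.61 ± 0.841 in EDC), Ciita (0.736 ± 0.487 and 0.419 ± 0.244), Cd80 (0.493 ± 0.176 and 1.32 ± 0.468) and Cd209a (0.260 ± 0.291 and 0.124 ± 0.0642) were the lowest, with overlapping spreads in click. The SD in click was larger than in EDC for 9 of these 10 genes, and Cd80 was the exception.

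Ratios of reads within a library do not depend on the scaling. For 9 ratios chosen after their values had been seen, an exact two-sided permutation test was run, in which 3 against 3 libraries cannot go below p = 0.1. The ratio of H2-Aa to H2-Ab1 reads, the 2 chains of I-A, was 1.45, 1.41 and 1.46 in click and 1.97, 1.57 and 1.70 in EDC. The click values were within 0.05 of each other and under each EDC value (mean log2 difference -0.27, exact permutation p = 0.1, adjusted over the 9 ratios 0.45), and the difference was -0.19 in male libraries alone and -0.11 between libraries of the low read class. The ratio of H2-Eb1 to H2-Ab1 was 0.623, 0.689 and 0.706 in click and 0.924, 0.695 and 0.811 in EDC, with click replicate 3 above EDC replicate 2 (mean log2 difference -0.26, exact permutation p = 0.2, adjusted 0.45). The ratio of Cd74 to H2-Aa had no direction that held, at 1.64, 1.63 and 1.37 in click and 1.15, 1.82 and 1.41 in EDC (exact permutation p = 0.7, adjusted 0.7).

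The editor chains were less even. H2-DMb1 had 1.71, 0.791 and 0.725 reads for each read of H2-DMa in click and 1.61, 1.37 and 1.53 in EDC, so that click replicates 2 and 3 stood apart from the other 4 libraries (exact permutation p = 0.4, adjusted 0.514). In those same libraries H2-DMb2 had 259 and 1115 reads, against 15 in click replicate 1 and 60, 23 and 86 in EDC. Cd80 had 0.790, 0.434 and 0.280 reads for each read of Cd86 in click and 0.812, 1.14 and 0.742 in EDC, again lowest in click replicates 2 and 3 (exact permutation p = 0.2, adjusted 0.45). Ciita had 0.0231, 0.101 and 0.0424 reads for each read of H2-Aa in click and 0.0260, 0.0104 and 0.0307 in EDC (exact permutation p = 0.3, adjusted 0.45).

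Class II reads were set against macrophage reads as well. The 4 genes H2-Aa, H2-Ab1, H2-Eb1 and Cd74 together had 0.370, 1.78 and 0.980 reads for each read of the 12 macrophage markers in click and 0.327, 0.320 and 0.120 in EDC. The 3 click values were above the 3 EDC values, by a mean log2 difference of 1.90 (exact permutation p = 0.1, adjusted 0.45), and click replicate 1 was only just above. The mean log2 difference was 0.91 between libraries of the low read class and 2.75 in male libraries alone. Whether B cell reads had a part in this ratio was not tested. Click replicate 2, with the highest ratio, had the lowest sums of both, 249 CPM for the 4 genes and 140.1 CPM for the macrophage markers. Lyz2 made up most of the macrophage sum, at 806, 103 and 755 CPM in click and 1503, 1131 and 2960 CPM in EDC. For Cd80 the ratio to macrophage markers was 0.00155, 0.00857 and 0.00248 in click and 0.00216, 0.00181 and 0.00160 in EDC, with click replicate 1 the lowest of the 6 and click replicate 2 the highest (mean log2 difference 0.80, and 0.088 without click replicate 2; exact permutation p = 0.5, adjusted 0.562). For Cd86 it was 0.00196, 0.0197 and 0.00887 in click and 0.00266, 0.00159 and 0.00216 in EDC (exact permutation p = 0.3, adjusted 0.45).

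**Figure D3:**
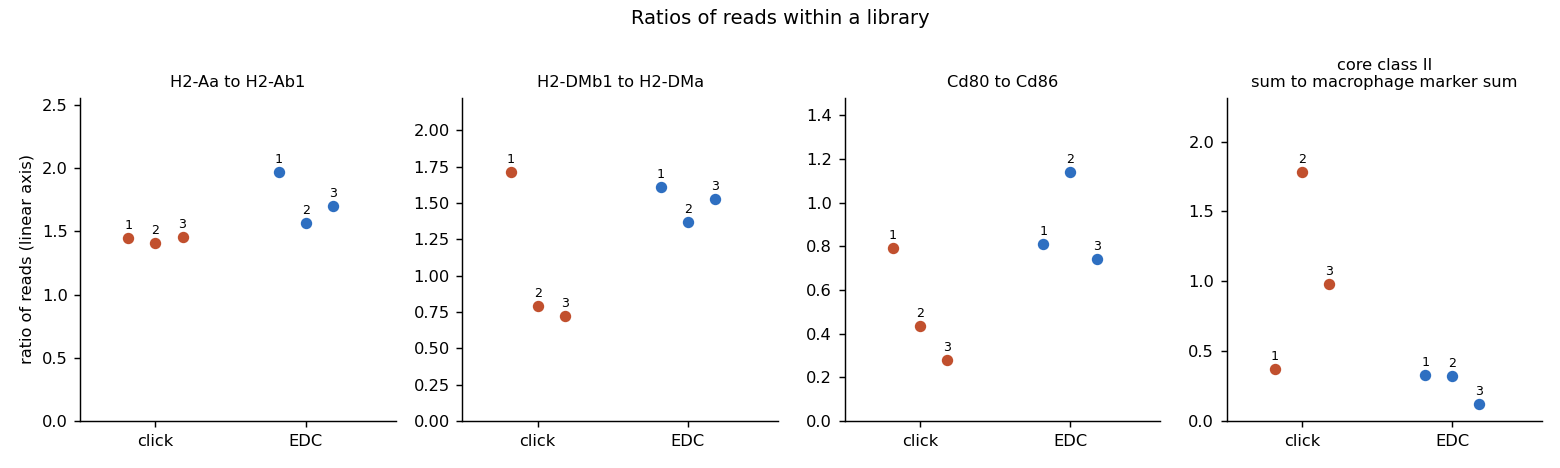
Ratio of reads within each library on a linear axis for 4 gene pairs or sums, with click at the left and EDC at the right of each panel; numbers are replicates. The H2-Aa to H2-Ab1 ratio lies between 1.41 and 1.46 in click and between 1.57 and 1.97 in EDC, and click replicates 2 and 3 have the lowest H2-DMb1 to H2-DMa and Cd80 to Cd86 ratios.

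Other genes of the class II chains and their regulator H2-O were read mainly in click replicates 2 and 3. H2-Ob and H2-Oa encode the chains of H2-O, which restrains H2-M and is best known from B cells. H2-Ob had 2, 227 and 628 reads in click and 18, 9 and 23 reads in EDC, and H2-Oa had 3, 86 and 364 reads in click and 6, 9 and 6 in EDC. H2-Eb2, a second I-E beta gene, had 0, 91 and 381 reads in click and 10, 0 and 19 in EDC. Click replicate 1 was at or under the EDC libraries in these genes, so the groups overlapped. Fitted values on the log2 scale were 4.42 for H2-Ob (SE 1.40, edgeR adjusted p = 0.298), 3.35 for H2-DMb2 (SE 1.17, edgeR adjusted p = 0.298) and 4.35 for H2-Eb2 (SE 1.74, edgeR adjusted p = 0.314). edgeR called 0 of the 3 tested, all 3 with an unadjusted p under 0.05, which 15.2% of all genes had in either direction. DESeq2 called H2-Ob and H2-DMb2 as higher (DESeq2 adjusted p = 0.00825 and 0.0241), where it called 1.73% of all genes. They were high in the libraries with high B cell markers, whose part in the result was not tested.

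The lysosomal enzymes that trim the invariant chain and its cargo had the other order. Lgmn, an asparagine-specific protease, had 106, 34.7 and 93.6 CPM in click and 238, 218 and 468 CPM in EDC. Ifi30, a thiol reductase of the lysosome, had 21.1, 8.44 and 29.6 CPM in click and 49.6, 31.2 and 63.8 CPM in EDC. In both genes each click library was under each EDC library. The same held for Ctss, with 368, 20.6 and 311 CPM in click and 623, 752 and 1499 CPM in EDC (log2 fold change -2.04, SE 0.92, edgeR adjusted p = 0.341). Such an order was found for 12.4% of all genes. On the log2 scale the difference was -1.98 for Lgmn (SE 0.50, edgeR adjusted p = 0.298, DESeq2 adjusted p = 0.00542) and -1.29 for Ifi30 (SE 0.48, edgeR adjusted p = 0.303). Ctsl, a cathepsin, had 385, 82.3 and 148 CPM in click and 414, 273 and 1315 CPM in EDC, with overlap (log2 fold change -1.70, SE 0.76, edgeR adjusted p = 0.339). Of the 4 enzyme genes measured, Ctss included, edgeR called 0, with 2 lower at an unadjusted p under 0.05, and DESeq2 called 1, Lgmn, on the lower side. Over all genes 1263 of 15797 were lower at such a p, and DESeq2 called 2.43% as lower. Macrophage marker sums had the same order, 140.1 to 1147 CPM in click and 1760.0 to 4151 CPM in EDC, and their part in the enzyme values was not tested.

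**Figure D4:**
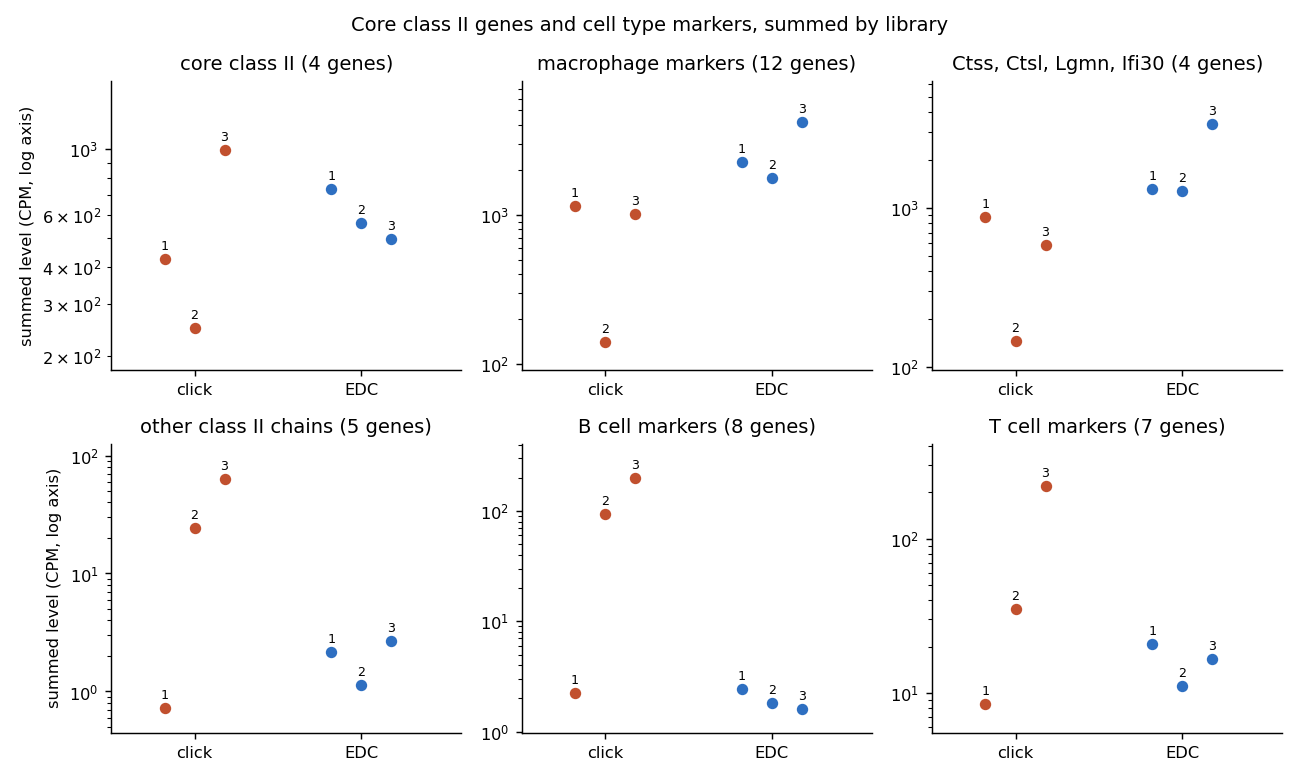
Summed level of 6 gene lists in CPM on a log axis, with click at the left and EDC at the right of each panel; each point is a library, numbered by replicate. The class II core is highest in click replicate 3 (989.9 CPM), macrophage markers and lysosomal enzymes are lower in each click library than in each EDC library, and B cell markers and the other class II chains are high in click replicates 2 and 3.

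The factors that hold the X and Y boxes had overlapping sums. Over 7 genes these were at 113, 100.4 and 111 CPM in click and 103, 105 and 100.2 CPM in EDC. Nfyb, a subunit of the Y box factor NF-Y, had 27.2, 28.8 and 21.4 CPM in click and 17.3, 17.4 and 14.9 CPM in EDC, without overlap (log2 fold change 0.64, SE 0.19, edgeR adjusted p = 0.298). Rfxap, a subunit of the RFX complex, gave 0.56 (SE 0.25, edgeR adjusted p = 0.334) and its partner Rfx5 gave -0.38 (SE 0.25, edgeR adjusted p = 0.466). At an unadjusted edgeR p under 0.05, 1 of the 7, Nfyb, passed, as did 15.2% of all genes in either direction, and edgeR and DESeq2 called 0. Each click library was above each EDC library for 2 of the 7 and for 9.84% of all genes.

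Signals that meet class II on the T cell, and those that induce it, were tested too. Of 5 tested ligands besides Cd80 and Cd86, edgeR and DESeq2 called 0, and 0 had an unadjusted edgeR p under 0.05. Icosl, the ligand of ICOS, gave 1.76 (SE 0.91, edgeR adjusted p = 0.381), with 0.615, 7.60 and 13.2 CPM in click and 2.52, 1.22 and 2.59 CPM in EDC. Cd274, the inhibitory ligand PD-L1, gave -0.79 (SE 0.47, edgeR adjusted p = 0.430) and Tnfsf9 gave -0.88 (SE 0.61, edgeR adjusted p = 0.488). Cd28, the receptor of CD80 and CD86, had 12.3, 15.2 and 13.4 CPM in click and 6.09, 9.95 and 7.30 CPM in EDC. Cd28 and Cd80 thus lay on opposite sides without overlap, as did 9.84% of all genes on the higher side and 12.4% on the lower. In click replicate 1 Cd28 stood at 12.3 CPM, while the T cell markers summed to 8.43 CPM, their lowest value in any library. Cd28 gave 0.81 on the log2 scale (SE 0.24, edgeR adjusted p = 0.298). Ctla4, the inhibitory receptor for the same ligands, gave 2.70 (SE 1.25, edgeR adjusted p = 0.345), and Pdcd1 gave 1.66 (SE 0.83, edgeR adjusted p = 0.368). Of the 5 tested receptors edgeR and DESeq2 called 0, with 1, Cd28, higher at an unadjusted edgeR p under 0.05, as were 1141 of all 15797 genes. Ctla4 had 0.217, 0.982 and 2.40 CPM in click and 0.114, 0 and 0.418 CPM in EDC, highest in click replicates 2 and 3, as were the T cell markers, whose part in these values was not tested.

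Interferon gamma is the known inducer of Ciita. Ifng itself had 0, 0 and 6 reads in click and 13, 3 and 10 reads in EDC and was not tested. Of 10 other genes of its pathway edgeR and DESeq2 called 0, and 0 had an unadjusted edgeR p under 0.05. Ifngr2, a receptor subunit, gave 0.39 (SE 0.19, edgeR adjusted p = 0.367) and Jak2, a kinase of that receptor, 0.32 (SE 0.20, edgeR adjusted p = 0.439). Of 9 class I presentation genes, edgeR and DESeq2 called 0, and 0 had an unadjusted edgeR p under 0.05. H2-D1, a class I heavy chain, had 342, 141 and 461 CPM in click and 494, 507 and 856 CPM in EDC (log2 fold change -0.98, SE 0.46, edgeR adjusted p = 0.347). B2m, its light chain, gave -0.69 (SE 0.39, edgeR adjusted p = 0.408), also with each click library under each EDC library. Such an order was found for 2 of the 9 class I genes and for 12.4% of all genes. Tapbp, which loads class I peptides, gave -0.52 (SE 0.31, edgeR adjusted p = 0.431). Over the 43 tested genes of these lists, edgeR called 0, with 5 higher and 2 lower at an unadjusted p under 0.05. Of all 15797 genes, 1141 were higher and 1263 lower at such a p, together 15.2%. For the lists limma-voom called 0 and DESeq2 called 3, 2 higher and 1 lower. Over all genes DESeq2 called 1.73% as higher and 2.43% as lower.

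Dendritic cell markers did not all go the same way. Of the 15 tested, 11 had a log2 fold change over 0 and 4 under 0, with a median of 0.63. Over all 15797 genes 8102 were over 0 and 7695 under 0, with a median of 0.02. Ccr7, the receptor that guides dendritic cells and T cells to lymph nodes, had 0.398, 3.38 and 25.9 CPM in click and 0.618, 0.221 and 0.457 CPM in EDC (log2 fold change 4.50, SE 1.39, edgeR adjusted p = 0.298, DESeq2 adjusted p = 0.00383). Xcr1, of cross-presenting dendritic cells, had 2.53, 2.18 and 4.68 CPM in click and 1.69, 1.99 and 1.19 CPM in EDC (log2 fold change 0.95, SE 0.42, edgeR adjusted p = 0.334). Itgax, which macrophages also carry, had 64.3, 0.437 and 42.2 CPM in click and 77.5, 86.2 and 202 CPM in EDC (log2 fold change -1.77, SE 1.24, edgeR adjusted p = 0.492). Of the 15 tested markers edgeR called 0, and DESeq2 called 1, Ccr7, which was also the 1 with an unadjusted edgeR p under 0.05. Over all genes DESeq2 called 1.73% as higher, and 15.2% had such an edgeR p in either direction. The summed level of the 19 measured markers overlapped, at 40.2 to 183 CPM in click and 134 to 274 CPM in EDC, with 1 to 4 of them at 0 reads in a library. Itgax alone gave 64.3 of 107, 0.437 of 40.2 and 42.2 of 183 CPM in click replicates 1, 2 and 3. In EDC replicates 1, 2 and 3 it gave 77.5 of 143, 86.2 of 134 and 202 of 274 CPM.

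The genes most like the class II chains across the 6 libraries were sought among genes in none of the lists, by the root mean square difference from the mean of H2-Aa, H2-Ab1, H2-Eb1 and Cd74 in centred log2 CPM. The nearest were Fjx1 (0.0848), Cacnb3 (0.176), Fyn (0.194), Snx22 (0.196) and Nek8 (0.196), against a median of 0.753 over all genes tested. Fjx1 had 1.19, 0.764 and 2.86 CPM in click and 2.24, 1.80 and 1.47 CPM in EDC, and Fyn, a Src-family kinase, 11.2, 8.77 and 27.1 CPM in click and 23.7, 16.5 and 19.4 CPM in EDC. Both share the high value of click replicate 3 and the low one of click replicate 2. Among members outside those 4, the difference was 0.236 for H2-DMa (rank 19 of all 15797 genes tested) and 0.356 for H2-DMb1 (rank 166). It was 0.606 for Cd86 (rank 3644), 0.719 for Cd80 (rank 6933) and 0.964 for Ciita (rank 12346), the last being farther from the chains than the median gene.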

How the data were processed

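RNA from muscle was sequenced in 3 click and 3 EDC libraries. The deposited table holds raw read counts per gene symbol; mm10 is named in the submitters' processing notes, per the labels. The aligner, the counter, their annotation and how strand was handled are not stated in these sources. Lines without a symbol (3225 of 55335, 0.0631% to 0.0996% of reads) were left out. Both lines of the 80 symbols on 2 lines were kept and tested apart. The March genes of the turnover list were not matched, and 26 symbols had become dates. No pair of libraries agreed within sampling noise (chi-square per gene of 67.1 or more).

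Genes were tested with the two-sided quasi-likelihood test of edgeR 4.0.16 in R 4.3.3 (TMM factors, default expression filter, robust dispersion), with Benjamini-Hochberg adjustment over 15797 genes and a threshold of 0.05. The standard error is the change divided by the root of F. CPM are counts relative to the TMM-scaled library and are given for n = 3 libraries a group. Likeness used log2 CPM with a prior count of 2. Alternatives were DESeq2 1.42.0, limma-voom 3.58.1, other scalings and filters, covariates and libraries left out. Levels per kilobase use GENCODE M21 exons; the exons the submitters counted over are not known.

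The members, the lists, the ratios and the motif were chosen with earlier results of these data known. All members are named, and from each list of the wider pathway the genes called or up to 3 with the smallest p; 1 gene this rule names is not reported here. H2-Oa, Ifng, Pax5, Acta1, Ckm, Ccr7, Xcr1, Itgax, Ctss, Lyz2, Mmp9, S100a8 and S100a9 were named after their values were seen.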

Additional observations from a re-analysis of the deposited data

How the results depend on the processing

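With edgeR the count of genes called was 1; it was 605 with DESeq2, and 0 with limma-voom, the replicate block, sex as a covariate, the read class as a covariate or male libraries alone in edgeR, where 2602, 3673, 1906, 1677 and 1109 genes had an unadjusted p under 0.05. Leaving out each library in turn gave 0 to 7 genes called. Members called numbered 1 with DESeq2 (Cd80, adjusted p = 0.0467) and 0 in the other settings, and wider list genes called 3 with DESeq2 and 0 elsewhere. Members lower at an unadjusted p under 0.05 numbered 2 with the replicate block, 2 in click replicate 1 alone against EDC (a setting added after the data were seen, in which that library is assumed to vary like the EDC libraries), 0 in male libraries alone, and 1 to 5 without each library in turn. Over all genes such a p on the lower side was found for 12.1% with the block, 8.70% in click replicate 1 alone, 3.49% in male libraries alone and 3.25% to 12.5% without each library in turn. The correlation of deviations was -0.05, 0.19 and 0.28 for libraries of the same replicate number 1, 2 and 3, against -0.30 to 0.088 for unlike numbers. Whether the numbers mark pairs is not stated in the labels, and the block changed no call of a member.

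Cd80 and H2-DMb1 kept their direction in all 18 settings. Directions that turned were those of H2-Ab1 (-0.23 with library totals, which put the median of all genes at -0.45, -0.15 with limma-voom, -0.16 with the replicate block, -0.29 with read class and -0.34 in click replicate 1 alone), of H2-Aa, H2-Eb1, Cd74 and H2-DMa in male libraries alone (0.26, 0.34, 0.071 and 0.43), and of Ciita in click replicate 1 alone (-0.62). Leaving out each library in turn, the log2 fold change ran from -0.97 to 0.14 for H2-Aa, -0.67 to 0.42 for H2-Ab1, -1.01 to 0.15 for H2-Eb1, -0.75 to 0.18 for Cd74, -0.92 to 0.26 for H2-DMa and -1.24 to 0.088 for Cd86. The mean log2 Cd74 to H2-Aa ratio turned to -0.10 in male libraries and -0.29 in the low read class, and ran from -0.058 to 0.27 without each library in turn. The causes were not tested. Low reads limit Cd209a, Cd80 and H2-Eb2.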
